A study of Homo sapiens with 6 samples.

Results

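The genes described here encode Krüppel-like factors (KLF), a family of transcription factors. The members are the 10 named genes KLF3, KLF4, KLF5, KLF6, KLF7, KLF9, KLF10, KLF11, KLF13 and KLF16, matched by gene name among the 20333 gene intervals of the deposited count table. All 10 were found, each had at least 10 counts in a library, and all 10 passed the filter on low counts, which kept 19902 intervals. They are listed by family, with earlier results of these data known.

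Nascent transcription was measured by PRO-seq, a nuclear run-on method: permeabilised cells are given labelled nucleotides, polymerases that were at work add them, and the marked RNA is sequenced. A count therefore reports engaged polymerase over a gene, not the amount of mature mRNA or protein. All arms used T47D, a human breast cancer cell line of luminal type, labelled ER-positive and HER2-negative and grown in medium with serum. One arm received DMSO, the solvent, another 500 nM GDC0068, an inhibitor of AKT catalytic activity, and the last 100 nM of the AKT degrader INY-05-040, called Degrader here. Treatment lasted 5 h in every arm, and each arm has 2 libraries, numbered 1 and 2, from 2 independent experiments. The drug doses differ and were picked by the submitters so that both drugs lowered AKT signalling to a like degree. These are bulk libraries, so fewer cells transcribing a gene and less transcription per cell cannot be told apart.

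KLF proteins carry zinc fingers at their carboxyl end that bind GC-rich and CACCC elements in promoters, the same elements that SP proteins bind. They differ mainly in the part that recruits other proteins. KLF4, KLF5, KLF6 and KLF7 are best known as activators or as factors that can both activate and repress. KLF3, like its relatives KLF8 and KLF12, represses through the corepressor CtBP. KLF9, KLF10, KLF11, KLF13 and KLF16 bind SIN3A, a scaffold of histone deacetylase complexes. AKT phosphorylates FOXO transcription factors and keeps them out of the nucleus, and several KLF genes have been described as FOXO targets in other cell types.

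Total counts per library ranged from 25371819 to 32192576. The genes that define luminal breast cells were transcribed in every library: all 10 listed markers were measured, with summed levels (in CPM, the count scaled to library size) of 5930 to 6270 in DMSO, 6010 to 6290 under GDC0068 and 6270 to 6340 under Degrader. Among 6 basal or mesenchymal markers only EGFR was measured, at 54.9 to 66.5 CPM. Markers of leukocytes, fibroblasts and endothelial cells were not analysed here. Replicates differed by more than sampling noise, with a chi-square per degree of freedom of 5.01 in DMSO, 6.95 under GDC0068 and 5.59 under Degrader.

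The members spanned a wide range of transcription. To compare genes, CPM values were divided by the length of the interval in kilobases, a scale on which the median tested gene stood at 1.69 in DMSO. KLF6 was highest at 15.0 ± 1.8 CPM per kb in DMSO (SD, n = 2 here and below), which is the 95.3th percentile of tested genes. KLF10 followed at 7.40 ± 0.84 CPM per kb (88.4th percentile) and KLF16 at 3.95 ± 0.061. In the middle of the order lay KLF4 at 2.39 ± 0.31 CPM per kb, KLF11 at 1.94 ± 0.0056, KLF3 at 1.44 ± 0.047 and KLF9 at 1.21 ± 0.11. The lowest levels were those of KLF5, KLF7 and KLF13 at 0.639 ± 0.0043, 0.460 ± 0.025 and 0.366 ± 0.0037 CPM per kb, the last at the 12.6th percentile. Within DMSO no 2 neighbours in this order overlapped, and across all 6 libraries only KLF4 and KLF11 met, at 2.16 CPM per kb. The 5 genes with the highest levels also have the 5 shortest intervals (4918 to 11265 bp), and whether whole genes or gene bodies were counted is not given in the sources used here. Counts behind the members ran from 324 for KLF5 to 5777 for KLF6 in a library, at which counting error alone is 5.56% and 1.32%.

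**Figure D1:**
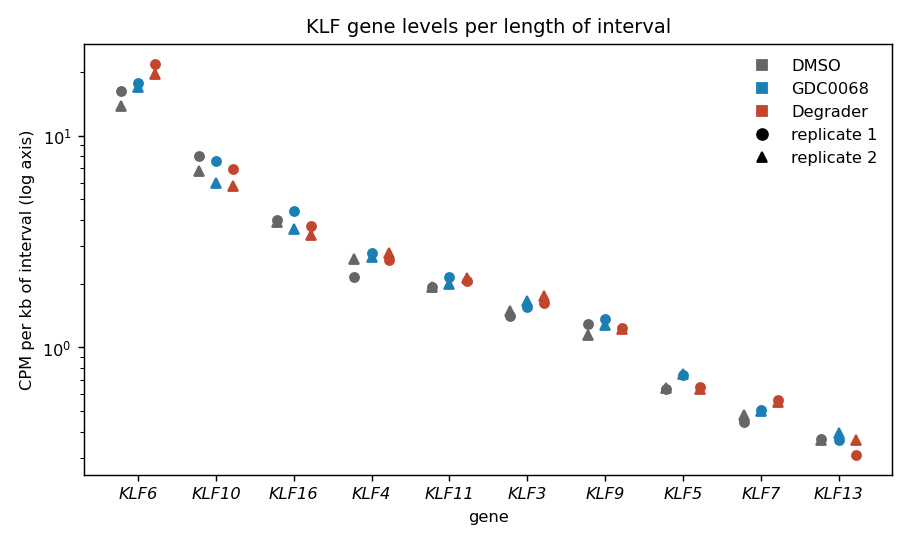
Level of each KLF gene per kilobase of interval (CPM per kb, log axis), with genes in order of their mean; each point is 1 library, coloured by arm, with circles for replicate 1 and triangles for replicate 2. KLF6 lies between 13.8 and 21.9 CPM per kb in the 6 libraries and KLF13 between 0.310 and 0.394.

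Upstream sequence was available from RefSeq (GRCh38.p14) for 8 of the 10 members, all but KLF3 and KLF10. For KLF4, KLF6, KLF13 and KLF16 the RefSeq start lies within 40 bp of the start of the counted interval, so the 150 bases before it are shown, because they hold the GC-rich elements that the family itself binds. Each sequence runs 5′ to 3′ on the gene's own strand, and capitals mark matches on either strand to the GC box (GGGCGG), the CACCC box (CCACCC) or the E-box (CACGTG), which may overlap each other.
KLF6 (chr10:3785210-3785359, minus strand): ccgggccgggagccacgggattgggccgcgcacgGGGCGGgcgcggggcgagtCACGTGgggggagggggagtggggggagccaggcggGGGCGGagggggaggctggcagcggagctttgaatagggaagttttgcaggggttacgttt
KLF4 (chr9:107489770-107489919, minus strand): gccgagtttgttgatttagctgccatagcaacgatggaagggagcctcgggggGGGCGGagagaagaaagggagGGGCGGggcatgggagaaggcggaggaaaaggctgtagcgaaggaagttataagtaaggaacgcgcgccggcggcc
KLF13 (chr15:31326685-31326834, plus strand): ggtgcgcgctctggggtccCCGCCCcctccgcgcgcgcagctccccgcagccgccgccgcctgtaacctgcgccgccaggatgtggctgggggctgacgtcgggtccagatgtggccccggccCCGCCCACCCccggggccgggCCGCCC
KLF16 (chr19:1863580-1863729, minus strand): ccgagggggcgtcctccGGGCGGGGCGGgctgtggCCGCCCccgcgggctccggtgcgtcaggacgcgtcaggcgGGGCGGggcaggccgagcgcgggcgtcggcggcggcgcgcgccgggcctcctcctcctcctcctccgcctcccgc
KLF16 holds 4 GC boxes in this window, KLF13 3, and KLF6 and KLF4 2 each. In KLF6 an E-box lies between its 2 GC boxes. Over the 300-base windows around the start, the GC box was present in 5 of the 8 members and in 69.8% of the 11119 tested genes with a window, the CACCC box in 2 of 8 and in 37.6%, and the E-box in 3 of 8 and in 10.1%. The FOXO heptamer GTAAACA was found in 0 of the 8 windows and in 2.34% of those of tested genes, the cAMP response element TGACGTCA in 0 and 3.27%, and the AP-1 element TGANTCA in 0 and 4.21%, all read on both strands. For KLF5, KLF7, KLF9 and KLF11 the RefSeq start lies 4029, 908, 705 and 257 bp from the interval's start, so these windows need not be the promoters used in T47D.

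The first question was which KLF genes change transcription in cells given the AKT degrader. Under Degrader 3 of the 10 members were called, KLF6, KLF7 and KLF3, and all 3 rose. A gene is called here at an edgeR quasi-likelihood p under 0.05 after Benjamini-Hochberg adjustment over all genes tested, and 15.3% of tested genes were called in this comparison (7.39% as higher and 7.88% as lower). The median log2 fold change of the 10 members was 0.06, against 0.00 over all genes tested. In both experiments KLF3, KLF4, KLF6, KLF7 and KLF11 were above the DMSO library of the same number, and KLF10 and KLF16 were below it. KLF5, KLF9 and KLF13 changed sign between them. The share of all genes with the same sign in both was not computed. With the replicate number as a block, 4 members were called, 3 higher and KLF10 lower, when 30.7% of all genes were (15.1% higher and 15.7% lower).

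**Figure D2:**
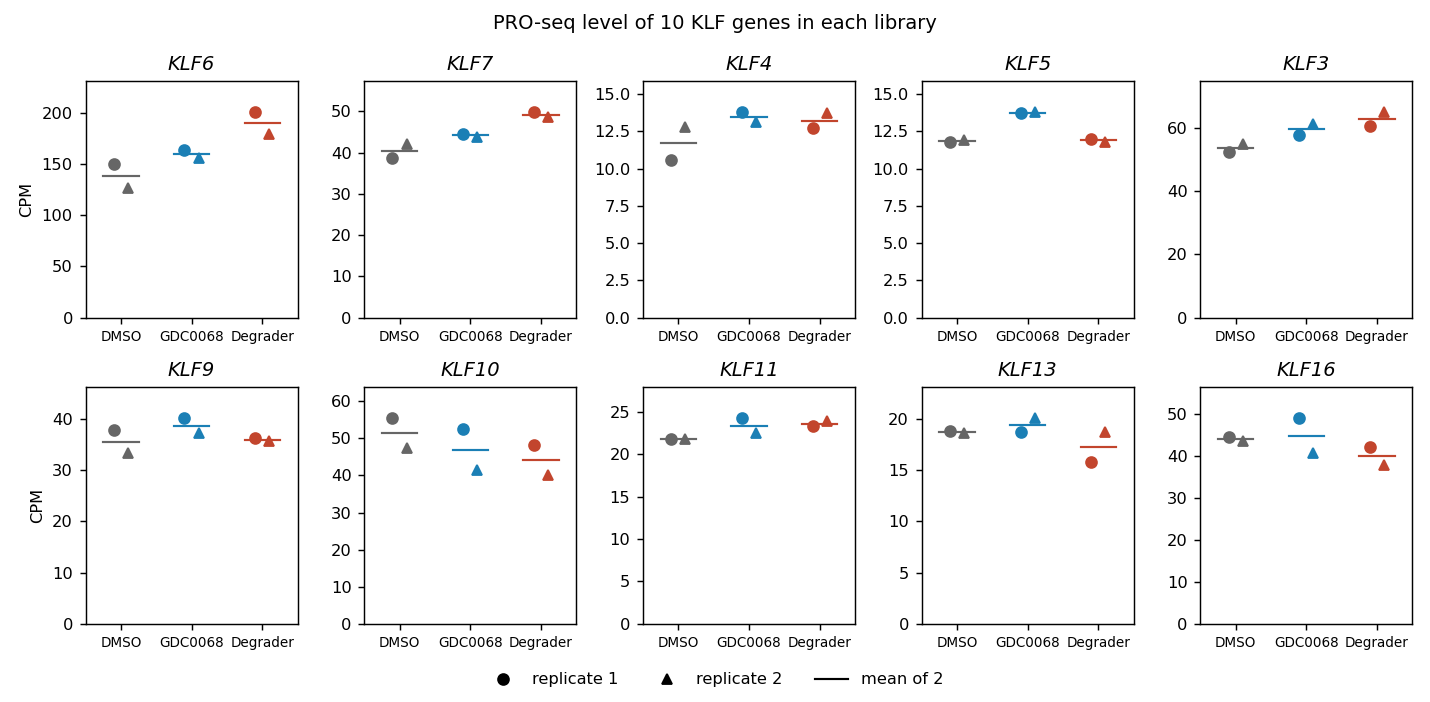
CPM of each KLF gene (vertical axis from 0) in the 6 libraries by arm; circles are replicate 1, triangles replicate 2 and bars the mean of the 2. KLF6 stands at 127 and 150 CPM in DMSO, 156 and 164 under GDC0068 and 179 and 201 under Degrader, while KLF5, not called in any comparison, reads 13.7 and 13.8 CPM under GDC0068.

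KLF6 (ENSG00000067082, chromosome 10, 3775996 to 3785185, minus strand) encodes a zinc finger factor described as a growth-restraining gene in several tumours. Its libraries read 150 and 127 CPM in DMSO (replicates 1 and 2), 164 and 156 under GDC0068, and 201 and 179 under Degrader. No 2 arms overlapped, and in each replicate the order was DMSO, GDC0068, Degrader. Degrader raised it above DMSO by 0.46 on the log2 scale (edgeR adjusted p = 0.00285, SE 0.077), or 37.5%. The change was 0.42 in replicate 1 and 0.50 in replicate 2. This call was the only one among the members to hold in all 14 alternative settings, with log2 fold changes from 0.34 to 0.59.

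KLF7 (ENSG00000118263, chromosome 2, 207079090 to 207166856, minus strand), the close relative of KLF6 first known as a ubiquitously expressed family member, read 38.8 and 42.0 CPM in DMSO, 44.5 and 43.9 under GDC0068, and 49.9 and 48.6 under Degrader. Here too no 2 arms overlapped. It rose under Degrader by 0.29 on the log2 scale (SE 0.062, edgeR adjusted p = 0.0101), with 0.36 and 0.21 in the 2 replicates. The call was lost without DMSO replicate 1 (0.23, edgeR adjusted p = 0.113), Degrader replicate 1 (0.27, edgeR adjusted p = 0.0615) or Degrader replicate 2 (0.31, edgeR adjusted p = 0.0645). The KLF7 interval contains MIR7845, a microRNA interval of 116 bp on the opposite strand that lies 358 to 473 bp inside the start of KLF7. MIR7845 stood at 18.4 and 17.5 CPM in DMSO and 18.6 and 18.1 under Degrader. The 2 arms overlapped, at a difference of 0.03 with a 95% interval from -0.21 to 0.27 (edgeR adjusted p = 0.884). Whether strand was used in counting is not given in the sources used here, so reads could be shared between them.

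Of the other 2 members known mainly as activators, KLF4 is a pluripotency and differentiation factor and KLF5 promotes the growth of epithelial cells. KLF4 (ENSG00000136826, chromosome 9, 107484852 to 107489769, minus strand) read 10.6 and 12.8 CPM in DMSO, 13.8 and 13.1 under GDC0068, and 12.7 and 13.7 under Degrader. Its 2 DMSO libraries were farther apart than those of either drug, and the Degrader libraries overlapped them. The Degrader estimate of 0.17 was not called (edgeR adjusted p = 0.345, SE 0.11). KLF5 (ENSG00000102554, chromosome 13, 73059005 to 73077538, plus strand) read 11.8 and 11.9 CPM in DMSO and 12 and 11.8 under Degrader, so its estimate of 0.01 had a 95% interval from -0.20 to 0.22 (edgeR adjusted p = 0.955).

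KLF3 (ENSG00000109787, chromosome 4, 38664251 to 38701517, plus strand) is the CtBP-dependent repressor among the members. It read 52.6 and 55.1 CPM in DMSO, 58.0 and 61.4 under GDC0068, and 60.6 and 65.2 under Degrader. Both drug arms lay above DMSO and overlapped each other. Under Degrader KLF3 rose by 0.23 on the log2 scale (SE 0.060, edgeR adjusted p = 0.0276), with 0.21 and 0.24 in the replicates. DESeq2 did not call it (adjusted p = 0.0604), nor did edgeR without DMSO replicate 1 (0.19, adjusted p = 0.186), DMSO replicate 2 (0.25, adjusted p = 0.0668) or Degrader replicate 2 (0.17, adjusted p = 0.227).

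On the other strand, 526 bp from the start of KLF3, begins KLF3-AS1, a long noncoding RNA transcribed away from it. KLF3-AS1 read 15.4 and 16.2 CPM in DMSO, 19.4 and 19.3 under GDC0068, and 18.2 and 19.4 under Degrader, so both drug arms lay above DMSO, as for KLF3. With Degrader it stood 0.25 above DMSO in log2 units (edgeR adjusted p = 0.0845) and with GDC0068 0.29 (edgeR adjusted p = 0.0995), neither called. Pairing the replicates made both calls (edgeR adjusted p = 0.0284 and 0.0187).

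None of the 5 members that bind SIN3A was called under Degrader by edgeR without the block, where 0 of the 5 also had an unadjusted p under 0.05 (29.9% of all genes did) and neither DESeq2 nor limma-voom called one. KLF10, also known as TGF-beta-inducible early gene 1, had the largest decrease. KLF10 (ENSG00000155090, chromosome 8, 102648784 to 102655723, minus strand) read 55.5 and 47.3 CPM in DMSO, 52.6 and 41.4 under GDC0068, and 48.2 and 40.1 under Degrader. Replicate 1 was above replicate 2 in every arm, by 0.23 to 0.35 on the log2 scale, and the arms overlapped. The fitted change under Degrader was -0.22 (SE 0.12, edgeR adjusted p = 0.228), and with the replicate block it was -0.22 with an SE of 0.053 and was called (edgeR adjusted p = 0.0021). Within the replicates it was -0.20 and -0.24. Without the block, leaving out a library moved it to -0.10 (DMSO replicate 1), -0.33 (DMSO replicate 2), -0.36 (Degrader replicate 1) or -0.09 (Degrader replicate 2).

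The glucocorticoid-responsive KLF9 (ENSG00000119138, chromosome 9, 70384597 to 70413952, minus strand) read 37.8 and 33.4 CPM in DMSO, 40.2 and 37.2 under GDC0068, and 36.3 and 35.7 under Degrader, with a Degrader change of 0.01 and a 95% interval from -0.15 to 0.18. KLF11 (ENSG00000172059, chromosome 2, 10043572 to 10054836, plus strand), a relative of KLF10 in TGF-beta signalling, read 21.8 in both DMSO libraries, 24.3 and 22.5 CPM under GDC0068, and 23.4 and 23.9 under Degrader. Both drug arms lay above DMSO, but the Degrader change of 0.12 was not called (SE 0.083, edgeR adjusted p = 0.392).

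KLF13 (ENSG00000169926, chromosome 15, 31326875 to 31377899, plus strand), known for its part in lymphocyte gene expression, read 18.8 and 18.6 CPM in DMSO, 18.7 and 20.1 under GDC0068, and 15.8 and 18.7 under Degrader. Degrader replicate 1 stood below the other 5 libraries, and the change of -0.12 was not called (SE 0.10, edgeR adjusted p = 0.491). KLF16 (ENSG00000129911, chromosome 19, 1852399 to 1863579, minus strand) read 44.6 and 43.6 CPM in DMSO, 49.0 and 40.6 under GDC0068, and 42.1 and 37.8 under Degrader. Both Degrader libraries lay below DMSO, and its change of -0.14 was not called (SE 0.087, edgeR adjusted p = 0.302; 0.0705 with the replicate block).

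**Figure D3:**
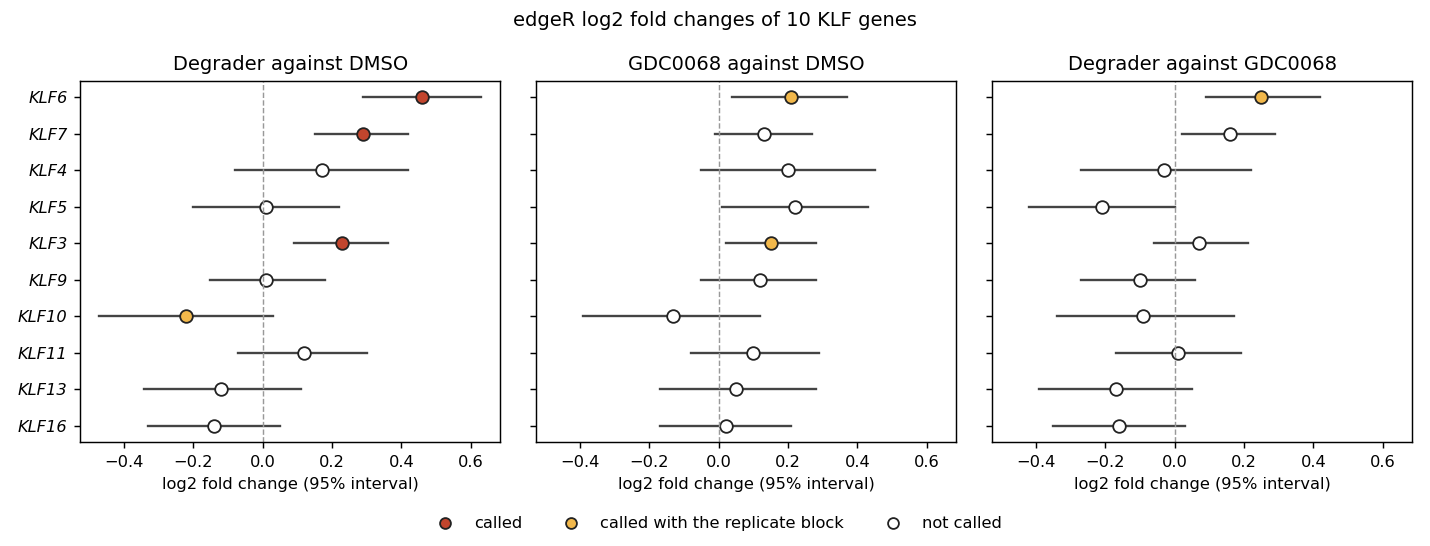
log2 fold change of each KLF gene (horizontal axis) with its 95% interval from the edgeR fit in the 3 comparisons; filled red points were called, yellow points only with the replicate block and open points in neither. KLF6, KLF7 and KLF3 are red under Degrader, at 0.46, 0.29 and 0.23.

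The second question was how the same genes respond to the AKT inhibitor GDC0068. Under GDC0068 edgeR called 0 of the 10 members, while 3.58% of all genes were called (1.7% higher and 1.88% lower). At an unadjusted p under 0.05 there were 3 members (KLF6, KLF3 and KLF5), against 20% of all genes, and DESeq2 and limma-voom called 0. The median log2 fold change of the members was 0.12, against 0.01 over all genes. In both experiments KLF3, KLF4, KLF5, KLF6, KLF7, KLF9 and KLF11 were above DMSO and KLF10 was below it. KLF13 and KLF16 changed sign between them. The share of all genes with the same sign in both was not computed. The libraries did not overlap with DMSO for 6 members, all higher, while 50.1% of all genes were separated, 26.1% higher and 24% lower. For Degrader the libraries of 4 members lay above DMSO without overlap and those of 1 below, against 58.6% of all genes, 29.3% above and 29.2% below. The comparisons of the drugs with DMSO share their control libraries, so these values are not independent of those under Degrader.

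KLF6 stood 0.21 above DMSO on the log2 scale under GDC0068 (SE 0.077, edgeR adjusted p = 0.163), with 0.13 and 0.30 in the replicates. The estimate was 0.33 without DMSO replicate 1 and 0.08 without DMSO replicate 2. The block called it (edgeR adjusted p = 2.80e-04, SE 0.038). KLF3 was likewise called only with the block (0.15, edgeR adjusted p = 0.0264, against 0.189 without it). In the blocked fit 17.8% of all genes were called (8.87% higher and 8.91% lower), and 2 of the 10 members, both higher. KLF5 read 13.7 and 13.8 CPM under GDC0068, above all 4 other libraries, which lay between 11.8 and 12 CPM. Its change of 0.22 (SE 0.095) was the highest of the members in this comparison and was 0.22 in both replicates, yet it was not called (edgeR adjusted p = 0.229, or 0.115 with the block). The estimate was 0.13 for KLF7 (edgeR adjusted p = 0.271), 0.20 for KLF4 (edgeR adjusted p = 0.361) and 0.12 for KLF9 (edgeR adjusted p = 0.427), none called. KLF4 differed between the replicates, with 0.37 in replicate 1 and 0.03 in replicate 2. KLF11, KLF13 and KLF16 had estimates of 0.10, 0.05 and 0.02 and KLF10 one of -0.13, each with an interval that includes 0.

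**Figure D4:**
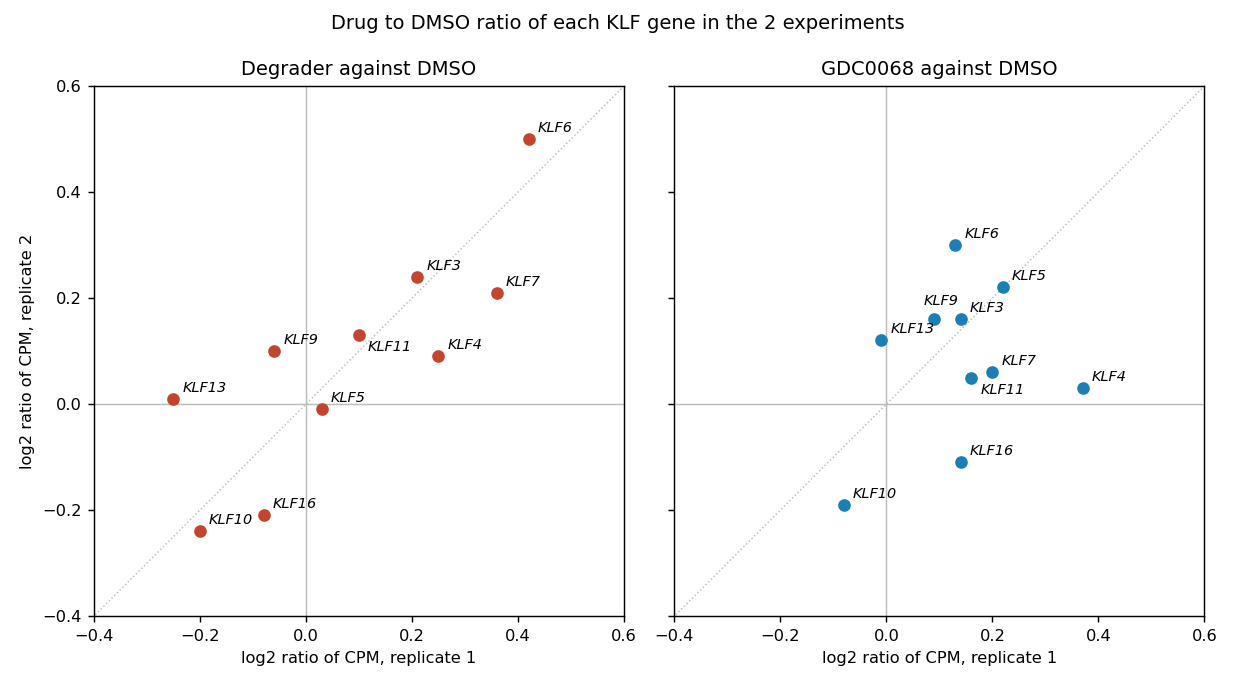
log2 ratio of drug to DMSO CPM for each KLF gene in replicate 1 (horizontal axis) and replicate 2 (vertical axis), for Degrader (left) and GDC0068 (right); the dotted line marks equal ratios. KLF6 is farthest from the origin under Degrader, at 0.42 and 0.50, and KLF4 under GDC0068 lies far to the right at 0.37 and 0.03.

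Setting Degrader against GDC0068 asked whether the compounds differ at these unequal doses. Without the block edgeR called 0 of the 10 members, while 0.266% of all genes were called (0.116% higher and 0.151% lower), and 2 members, KLF6 and KLF7, had an unadjusted p under 0.05 where 14.1% of all genes did. DESeq2 and limma-voom called 0. The drug arms did not overlap for 4 members, with KLF6 and KLF7 higher and KLF5 and KLF9 lower under Degrader, where 45% of all genes were separated (22.1% higher and 22.9% lower). KLF6 was higher under Degrader by 0.25 (95% interval 0.09 to 0.42, edgeR adjusted p = 0.176), in both replicates (0.30 and 0.20), and the block called it (edgeR adjusted p = 7.51e-05), when 10.4% of all genes were (5.03% higher and 5.35% lower). KLF7 was higher by 0.16 (95% interval 0.02 to 0.29, edgeR adjusted p = 0.284; 0.0685 with the block). The KLF5 difference was -0.21 (95% interval -0.42 to 0, edgeR adjusted p = 0.358). The difference was 0.07 for KLF3 (95% interval -0.06 to 0.21), -0.03 for KLF4 (-0.27 to 0.22) and 0.01 for KLF11 (-0.17 to 0.19). For KLF9, KLF10, KLF13 and KLF16 it lay between -0.17 and -0.09, not called.

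Of 8 further KLF genes, 4 were measured. Under Degrader 1 of these 4, KLF8, was called and rose, when 15.3% of all genes were called (7.39% higher). KLF8 shares the CtBP-dependent mode of repression with KLF3 and lies on the X chromosome (56232474 to 56291531, plus strand). It read 56.6 and 62.6 CPM in DMSO, 64.7 and 71.9 under GDC0068, and 74.0 and 83.4 under Degrader, with no overlap between arms. Degrader raised it by 0.40 on the log2 scale (edgeR adjusted p = 0.00519, SE 0.075). The GDC0068 estimate of 0.20 was called only with the replicate block (edgeR adjusted p = 0.170 without and 0.00235 with it). The Degrader call was lost without DMSO replicate 1 (0.33, edgeR adjusted p = 0.062) or Degrader replicate 2 (0.31, edgeR adjusted p = 0.0734). KLF2, KLF14 and KLF15 read 5.50 ± 0.43, 1.80 ± 0.099 and 8.11 ± 1.4 CPM in DMSO. Per kilobase of interval they stood at 1.80, 0.601 and 0.548 CPM, against 1.01 for KLF8. The Degrader changes of KLF2, KLF14 and KLF15 were 0.17, -0.51 and 0.20, none called. Among the SP genes, which bind the same GC boxes, 1 of 5 was called under Degrader, against the same 15.3% of all genes. SP2 rose by 0.19 (edgeR adjusted p = 0.023), from 111 ± 0.31 to 127 ± 2.8 CPM. That call was lost when any 1 of the DMSO or Degrader libraries was left out, with changes from 0.17 to 0.21. The GDC0068 estimate for SP2 was 0.18 (edgeR adjusted p = 0.0644), called with the block (edgeR adjusted p = 7.11e-04) and with robust estimation (edgeR adjusted p = 0.0488). Between the drugs SP2 differed by 0.01. Under Degrader the replicate block called 2 of the 5 SP genes, when 30.7% of all genes were called. They were SP2 and, named after its values were seen, SP6, which was lower (-0.24, edgeR adjusted p = 0.0438).

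Genes that act upstream of KLF genes were examined through a list of 20, of which 18 were tested. Like the other gene lists here, it was chosen with earlier results of these data known. Shares of calls in these lists are therefore descriptive and no test of enrichment. Under Degrader 7 were called and all 7 rose, against the 7.39% of all genes called as higher, with a median over the list of 0.18. With the replicate block 12 were called, 10 higher and 2 lower, against 30.7% of all genes. The 7 include 3 of the 4 FOXO genes: FOXO4 rose by 0.87 (SE 0.17, edgeR adjusted p = 0.00716) from 2.74 ± 0.13 CPM, FOXO3 by 0.25 (SE 0.055, edgeR adjusted p = 0.0103) and FOXO1, named after its values were seen, by 0.26 (SE 0.069, edgeR adjusted p = 0.0256). The fourth, FOXO6, had an estimate of -0.25 (edgeR adjusted p = 0.182) and was called lower with the block (edgeR adjusted p = 0.0259), as was ESR1, the estrogen receptor gene (-0.13, edgeR adjusted p = 0.00921); both were named after their values were seen. MEF2D, a factor through which the kinase ERK5 drives KLF2 and KLF4, rose by 0.39 (SE 0.058, edgeR adjusted p = 0.00143), and MAP2K5, the kinase that activates ERK5, by 0.23 (edgeR adjusted p = 0.0137). PGR, the progesterone receptor, rose by 0.34 (edgeR adjusted p = 0.00801) and SMAD2, a mediator of TGF-beta signals, by 0.25 (edgeR adjusted p = 0.00826). MEF2D kept its call in all 14 alternative settings, and each of the other 6 lost it when at least 1 library was left out. Of the 7, 2 were still called without DMSO replicate 1 or Degrader replicate 2, and 4 without DMSO replicate 2 or Degrader replicate 1. Under GDC0068 edgeR called 0 of the 18, with 8 at an unadjusted p under 0.05 (20% of all genes) and 0 calls by DESeq2 or limma-voom, and the block called 8 (17.8% of all genes). Between the drugs edgeR, DESeq2 and limma-voom called 0, 3 had an unadjusted edgeR p under 0.05 (14.1% of all genes), and the block called 6 (10.4% of all genes).

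Cofactors and ubiquitin ligases of KLF proteins gave 1 call among 14 tested under each drug, against 15.3% of all genes under Degrader and 3.58% under GDC0068. Under Degrader the count was 3 without GDC0068 replicate 1 or 2, with robust estimation or with only the 4 libraries compared, and 2 with limma-voom or no low-count filter. The call was FBXO32, the F-box protein atrogin-1, described as a ligase for KLF4. Degrader raised it by 0.52 (edgeR adjusted p = 1.38e-04) and GDC0068 by 0.28 (edgeR adjusted p = 0.0144), both with an SE of 0.049. The GDC0068 call was lost without DMSO replicate 1 (0.31), DMSO replicate 2 (0.24) or GDC0068 replicate 2 (0.25). Between the drugs FBXO32 was higher under Degrader by 0.25 and was not called (edgeR adjusted p = 0.067). That difference was called with robust estimation (edgeR adjusted p = 0.0412), DESeq2 (adjusted p = 0.0485) and the block (edgeR adjusted p = 9.75e-05). The corepressor and histone deacetylase genes of this list were named after their values were seen. Under Degrader their estimates were -0.12 (CTBP1), 0.14 (CTBP2), 0.13 (SIN3A), -0.08 (SIN3B), -0.09 (HDAC1) and -0.30 (HDAC2). None was called by edgeR without the block. With it CTBP1, CTBP2, SIN3A and HDAC2 were called and SIN3B and HDAC1 were not, when 9 of the 14 were called and 30.7% of all genes.

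Finally, genes described as targets of KLF proteins were read from a list of 21, of which 17 were tested. Under Degrader 5 were called, 4 higher and 1 lower, against 15.3% of all genes (7.39% higher and 7.88% lower), with a list median of 0.04. CDKN1B, which encodes the cell cycle inhibitor p27, rose by 0.49 (SE 0.073, edgeR adjusted p = 0.00158) and kept its call in all 14 settings. ATF3, a stress-induced factor, rose by 0.28 (edgeR adjusted p = 0.00528) and IGF1R, the receptor of IGF-1, by 0.20 (edgeR adjusted p = 0.0463). CCNE1, encoding cyclin E1, fell by 0.49 on that scale (edgeR adjusted p = 0.0114, SE 0.11). Of the 5 called, only CDKN1B was still called without DMSO replicate 1, 2 were without Degrader replicate 1 or Degrader replicate 2, and 3 without DMSO replicate 2. With the replicate block 10 were called, 5 in each direction, against 30.7% of all genes. CDKN1A, the p21 gene that KLF4 and KLF6 are known to activate, was named after its values were seen. It had an estimate of -0.14 (edgeR adjusted p = 0.374) and was called only with the block (edgeR adjusted p = 0.0486). Under GDC0068 edgeR called 0 of the 17, with 3 at an unadjusted p under 0.05 (20% of all genes) and 0 by DESeq2 or limma-voom, and the block called 6 (17.8% of all genes).

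The pattern of KLF6 over the 6 libraries was set against that of 13896 other genes averaging 10 CPM or more, after centring the log2 CPM of each gene on its own mean. The 3 nearest were MYB, DUSP6 and ABCC13, with root mean square differences of 0.026, 0.042 and 0.048 on the log2 scale, against a median of 0.22 over all genes. Over 6 libraries this is a description of likeness only. MYB, a transcription factor gene active in luminal cells, stood 0.41 above DMSO under Degrader and 0.20 under GDC0068, beside 0.46 and 0.21 for KLF6. The GDC0068 estimate for MYB was called only with the replicate block (edgeR adjusted p = 0.16 without and 0.00154 with it). DUSP6, which encodes a phosphatase of ERK, stood 0.38 and 0.17 above DMSO, and ABCC13 0.42 and 0.17.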

How the data were processed

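PRO-seq counts per gene interval were deposited by the authors as raw counts, with 1 column per library and none unused. They are whole numbers with unequal totals, as raw counts would be, though counts scaled and then rounded could look the same. Per the submitters' processing notes, cutadapt 1.14, Bowtie 1.2.2, SAMtools 1.3.1, HISAT2 2.2.1 and limma were used, and the builds hg38, GRCh38 and the fruit fly build dm3 are named, with no roles. The part of a gene counted, the use of strand, duplicate removal and any spike-in scaling are not given in the sources used here, and each can change counts. No fly counts were used, so every change is relative to the bulk of genes. Interval starts are printed as counted from 1, which adds 1 to the deposited starts. All 10 member names overlap the gene of that name in GRCh38.p14.

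Tests used edgeR 4.0.16 (R 4.3.3): filterByExpr (minimum count 10, minimum total 15), TMM scaling (factors 0.997 to 1.003), and 1 quasi-likelihood fit of all 6 libraries with a term per arm (3 residual degrees of freedom), adjusted by Benjamini-Hochberg over 19902 genes. The SE is the log2 fold change divided by the square root of F, and 95% intervals use the moderated degrees of freedom. CPM uses TMM-scaled library sizes. Other settings were DESeq2 1.42.0, voom of limma 3.58.1 and those in the closing part. The fit was tested on simulated data drawn without a replicate effect, so that test does not cover deviations shared by same-numbered libraries. Counting errors cover counting only. Nothing states separate cultures beyond the 2 experiments. The p-values therefore weigh each change only against the spread between these libraries, shared by the arms and moderated across genes. With 2 libraries per arm no permutation test between arms can pass 0.05.

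Same-numbered libraries deviated together from their arm means (Pearson's r across 13897 genes of 0.419 to 0.492 for the 3 pairs of arms; genes are not independent replicates), and the series describes 2 experiments, so the replicate number was taken to pair libraries. Results of the fit with it as a block stand beside the results named in the text that they change.

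The members and gene lists were chosen with earlier results of these data known. By rule, named genes are the members, further KLF genes, up to 6 called genes per list, and intervals overlapping a member. Antisense RNAs named after a member and the 3 genes most like the member with the smallest adjusted p under Degrader were added. Other genes named after their values were seen are marked so in the text. One called gene of the target list is not reported here.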

Additional observations from a re-analysis of the deposited data

How the results depend on the processing

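With 2 libraries per arm, leaving 1 out rests an arm on a lone library, which is assumed to vary like the others. Scaling by relative log expression or total counts, dropping the low-count filter, robust estimation, limma-voom and fitting only the 4 libraries compared each left KLF3, KLF6 and KLF7 called under Degrader, and DESeq2 left KLF6 and KLF7. The fit with the replicate block called 6114 genes for Degrader, 3540 for GDC0068 and 2065 for the direct comparison, against 3039, 712 and 53 without it; of the members it called 4, 2 and 1. Between the drugs, robust estimation called 116 genes, DESeq2 141 and the 4 libraries alone 23. Leaving out 1 library in turn gave 787 to 3218 genes for Degrader, 37 to 557 for GDC0068 and 3 to 51 for the direct comparison, and 1 to 3 members under Degrader. Of 420 values of members under the 14 alternative settings, 400 kept their side of the threshold without changing sign. A value that rounded to no change was counted among these. Of the rest, 7 lost a call, 4 gained one and 9 changed sign, all 9 when a library was left out and none of them called. The cause was not tested. Most of the 420 values came from comparisons in which the member was not called without the block, so there was no call to lose. The 3 calls that could be lost were those under Degrader. Over the 14 settings KLF6 kept its call in 14, KLF7 in 11 and KLF3 in 10. Over the left-out libraries KLF9 ran from -0.08 to 0.11 under Degrader. Under GDC0068 KLF10 ran from -0.31 to 0.02, KLF13 from -0.01 to 0.11 and KLF16 from -0.12 to 0.14. Between the drugs KLF4 ran from -0.08 to 0.03, KLF10 from -0.24 to 0.09 and KLF11 from -0.03 to 0.07. Other genes that changed sign this way, none called, were KLF2 (-0.05 to 0.11), KLF15 (-0.13 to 0.23), IGF1R (-0.05 to 0.06) and MIR7845 (-0.21 to 0.09) under GDC0068, MIR7845 (-0.01 to 0.07) under Degrader, and SP2 (-0.03 to 0.06), MIR7845 (-0.06 to 0.24) and KLF3-AS1 (-0.09 to 0.01) between the drugs.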
